A study of Mus musculus with 2 samples.

Results

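Intronic open sites are stretches of accessible DNA inside the introns of protein-coding genes, away from the promoters. They were taken here from DNase-seq, in which the nuclease DNase I cuts accessible DNA in nuclei and the cut ends are sequenced. A peak of replicate 2's stricter peak list was a member when it lay inside a protein-coding gene body, touched no exon of a protein-coding gene, and stayed more than 1000 bp from every transcription start site (TSS) of a protein-coding gene, by the GENCODE M21 basic annotation of the mm10 mouse genome. The rule found 9307 intronic sites among 38223 peaks, which is 24.3% of the list (95% Wilson interval 23.9 to 24.8), and together they covered 1.77 Mb. The other peaks were 16360 promoter peaks, 1821 exon peaks, 10672 intergenic peaks and 63 peaks that only partly overlapped a gene body.

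The 2 libraries, biological replicates 2 and 3 with technical replicate 1 each, came from resting, naive alpha-beta T cells of the CD8-positive lineage, taken from male B6CASTF1/J mice 2 months old. B6CASTF1/J is the first-generation cross of C57BL/6J and CAST/EiJ. Both libraries form 1 group, with no treatment, mutant or second cell type, so the comparisons are between classes of peaks and between the libraries. The labels give both libraries 1 donor but separate biosamples, and they do not say whether more than 1 animal was used. Intervals on shares and rates therefore cover counting error only, and neighbouring sites, which share a locus, are not independent of each other.

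Naive CD8 T cells circulate in a resting state until their T cell receptor meets its peptide antigen on an MHC class I molecule. In such cells, as in others, many enhancers lie in introns, where transcription factors hold DNA open at a distance from the start site. CTCF, a zinc finger protein that binds a long motif and anchors chromatin loops, holds open another large group of sites far from promoters. Factors that shape T cells and can bind such sites include RUNX1 and RUNX3, the HMG-box factors TCF7 and LEF1, ETS1, and the zinc finger protein BCL11B. A footprint is a short stretch within an open site that is cut less than its surroundings, the trace left by a bound protein.

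The sequences that follow come from the mm10 reference genome, which is the C57BL/6J sequence and so holds 1 of the 2 parental alleles of the cross. They are on the plus strand, and capitals mark bases inside replicate 2's deposited footprints. The first set holds the strongest intronic site of genes that carry naive and CD8 T cell identity, because their sites are described one by one further on. Bach2 (chr4:32258201-32258460, intron 1 of 6), Lef1 (the central 300 bases of chr3:131157401-131157800, intron 3 of 9), Tcf7 (chr11:52265761-52265960, intron 2 of 9), Bcl11b (chr12:107998841-107999020, intron 1 of 3), Cd247 (chr1:165845441-165845700, intron 1 of 8) and Runx3 (chr4:135150521-135150720, intron 1 of 5) are shown.
Bach2: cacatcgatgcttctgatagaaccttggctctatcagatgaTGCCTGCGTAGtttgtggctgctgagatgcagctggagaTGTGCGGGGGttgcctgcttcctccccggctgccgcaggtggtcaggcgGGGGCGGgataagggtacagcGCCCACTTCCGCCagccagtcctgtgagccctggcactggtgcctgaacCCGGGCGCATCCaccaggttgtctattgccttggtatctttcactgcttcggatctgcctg
Lef1: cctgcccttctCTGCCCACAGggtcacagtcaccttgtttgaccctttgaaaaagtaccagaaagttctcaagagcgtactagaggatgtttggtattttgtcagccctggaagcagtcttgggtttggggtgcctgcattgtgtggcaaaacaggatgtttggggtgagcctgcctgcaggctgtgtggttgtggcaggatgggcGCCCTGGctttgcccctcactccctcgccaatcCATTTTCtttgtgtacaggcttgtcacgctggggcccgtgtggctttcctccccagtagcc
Tcf7: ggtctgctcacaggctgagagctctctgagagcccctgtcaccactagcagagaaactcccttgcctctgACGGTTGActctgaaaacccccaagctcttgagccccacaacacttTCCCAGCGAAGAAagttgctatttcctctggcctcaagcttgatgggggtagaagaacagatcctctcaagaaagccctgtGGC
Bcl11b: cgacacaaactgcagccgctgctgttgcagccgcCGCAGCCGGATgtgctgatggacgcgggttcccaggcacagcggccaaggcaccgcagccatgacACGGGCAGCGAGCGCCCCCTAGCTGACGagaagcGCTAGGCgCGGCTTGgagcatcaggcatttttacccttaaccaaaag
Cd247: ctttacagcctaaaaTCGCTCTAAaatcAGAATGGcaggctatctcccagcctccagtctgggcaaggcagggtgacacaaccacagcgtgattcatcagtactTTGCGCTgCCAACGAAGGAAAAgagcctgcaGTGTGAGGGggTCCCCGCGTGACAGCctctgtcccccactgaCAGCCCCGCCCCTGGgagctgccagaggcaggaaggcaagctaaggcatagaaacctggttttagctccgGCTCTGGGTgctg
Runx3: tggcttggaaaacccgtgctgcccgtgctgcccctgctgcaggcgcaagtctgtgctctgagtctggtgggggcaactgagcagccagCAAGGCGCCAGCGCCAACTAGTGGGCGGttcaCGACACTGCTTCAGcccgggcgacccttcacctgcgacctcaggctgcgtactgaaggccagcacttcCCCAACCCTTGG

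The second set shows a CTCF site and the kinds of site with the highest signal. Themis (chr10:28844261-28844440, intron 4 of 5) holds a CTCF match inside its first run of capitals. Ccnd3 (chr17:47511221-47511420, intron 1 of 6) is a strong first-intron site whose central 32 bases occur once in the primary mm10 assembly. Il31ra (chr13:112578161-112578320, intron 1 of 16) and Jarid2 (chr13:44869561-44869700, intron 3 of 17) are among the strongest intronic sites of all. The central 32 bases of each occur at 2 places in that assembly, and copies missing from it were not counted.
Themis: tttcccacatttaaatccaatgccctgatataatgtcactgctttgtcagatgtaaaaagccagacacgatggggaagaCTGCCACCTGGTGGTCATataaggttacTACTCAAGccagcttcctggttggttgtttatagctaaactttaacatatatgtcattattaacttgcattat
Ccnd3: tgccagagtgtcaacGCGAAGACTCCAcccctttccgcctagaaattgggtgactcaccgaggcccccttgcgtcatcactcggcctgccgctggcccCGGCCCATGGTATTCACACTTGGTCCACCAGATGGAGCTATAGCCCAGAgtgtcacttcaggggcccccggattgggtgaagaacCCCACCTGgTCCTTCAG
Il31ra: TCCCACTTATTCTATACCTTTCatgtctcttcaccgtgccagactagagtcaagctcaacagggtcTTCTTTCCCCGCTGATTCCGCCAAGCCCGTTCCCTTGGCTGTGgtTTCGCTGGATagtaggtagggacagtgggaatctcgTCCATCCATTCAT
Jarid2: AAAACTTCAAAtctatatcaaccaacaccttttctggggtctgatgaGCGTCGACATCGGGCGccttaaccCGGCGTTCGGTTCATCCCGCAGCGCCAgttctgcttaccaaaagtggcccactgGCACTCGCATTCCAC

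Intronic sites were weaker and narrower than promoter peaks and poorer in CpG. The deposited signal of a peak, column 7 of the peak lists, had a median of 0.992 in intronic sites (quartiles 0.686 to 1.57) and 2.08 in promoter peaks (0.895 to 4.56) in replicate 2. Exon peaks had a median of 1.16 and intergenic peaks 1.07. In replicate 3 the order was the same between the main classes, with a median signal of 2.12 in its 2536 intronic peaks by the same rule and 3.93 in its promoter peaks. Signals of the 2 libraries are on scales that step by 0.00746 in replicate 2 and 0.0452 in replicate 3, and levels are compared only within a library. The sources used here do not give the scaling of the column, and read totals were not used. The median width was 180 bp in intronic sites and 240 bp in promoter peaks, the median GC content 51.5% against 64.6%, and the median number of CpG dinucleotides per 100 bp 1.53 against 8.18. The classes met without a step at the limit of the promoter window. The 267 intronic sites with their nearer edge 1001 to 1250 bp from a TSS had a median signal of 0.888, and the 756 promoter peaks at 751 to 1000 bp had 0.918.

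Most intronic sites of replicate 2 had no peak in replicate 3. Of the 9307 sites, 2392 overlapped a peak of replicate 3's stricter list, which is 25.7% (24.8 to 26.6). The share was 59.6% for promoter peaks, 32.6% for exon peaks and 32.6% for intergenic peaks. The difference from promoter peaks was -33.9 percentage points (Newcombe interval -35.1 to -32.7), from exon peaks -6.86 points (-9.22 to -4.57) and from intergenic peaks -6.90 points (-8.15 to -5.64). Against replicate 3's permissive list, which holds more and weaker peaks, 4252 sites were found (45.7%). By the deposited false discovery rate (FDR) of each position, all 9307 sites reached 0.001 or below in replicate 2. The sites were chosen from that library's own stricter list, so this is no independent result. In replicate 3, which took no part in the choice, 2586 sites reached 0.001 (27.8%), 4523 reached 0.05 (48.6%), and 4784 had no position at 0.05.

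The share found rose with signal. With all peaks of replicate 2 cut into 10 equal bins of signal, 1.59% of intronic sites were found in replicate 3 in bin 1, the lowest, 20.3% in bin 5, 73.2% in bin 8 and 99.1% in bin 10, which held 109 intronic sites. Sites found in both libraries had a median replicate 2 signal of 1.90, and sites of replicate 2 alone had 0.843. Had intronic sites been found at the promoter peaks' share in each bin, 33.1% would have been found, against 25.7% observed, and the intronic share was the lower in 9 of 10 bins. With the shares of intergenic peaks it would have been 28.5%, and with those of exon peaks 25.5%. Read the other way, 97.6% of replicate 3's 2536 intronic peaks (2474) overlapped a peak of replicate 2. Across the 2392 sites in both libraries, the signals had a Spearman rank correlation of 0.835, a description over sites that share libraries and are not replicates.

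**Figure D1:**
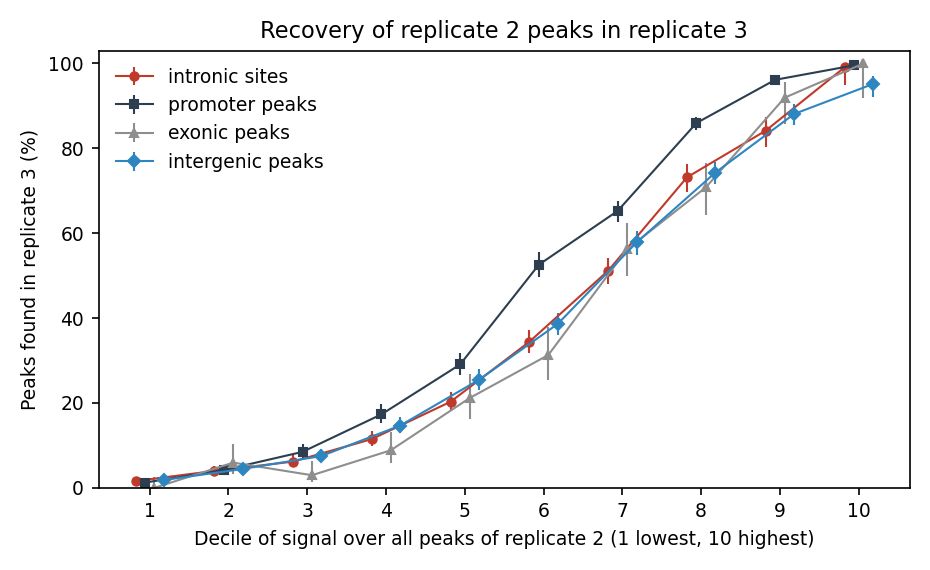
Share of replicate 2 peaks that overlap a peak of replicate 3's stricter list (vertical axis, percent, with 95% Wilson intervals) by decile of signal over all peaks of replicate 2 (horizontal axis), for intronic sites, promoter, exonic and intergenic peaks. The share of intronic sites climbed from 1.59% in decile 1 to 99.1% in decile 10 and lay below that of promoter peaks in 9 of the 10 deciles.

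Nearly all intronic sites of replicate 2 held a footprint. Of the 9307 sites, 8524 overlapped at least 1 footprint, which is 91.6% (91.0 to 92.1), and 783 held none. Promoter peaks held one in 81.4% of cases, a difference of 10.2 points (9.32 to 11.0), while the share was 91.7% in exon peaks and 92.7% in intergenic peaks. In replicate 3 the order of the first pair was the other way round, with 59.4% of intronic and 74.6% of promoter peaks holding a footprint (difference -15.2 points, -17.3 to -13.1). In replicate 2's lowest decile of signal 70.8% of intronic sites and 34.8% of promoter peaks held a footprint, and in the highest decile 100% and 99.9%.

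The 22177 footprints of intronic sites averaged 2.38 per site, with a median of 2 and a maximum of 13, or 12.6 per kb. Their median width was 10 bp (quartiles 7 to 14). Sites without a footprint had a median signal of 0.604, and 3.07% of them were found in replicate 3. Sites with 5 footprints had a median signal of 1.72, and 43.0% of them were found. The share did not keep rising: it was 78.6% of the 14 sites with 9 footprints and 14.3% of the 7 with 10 or more. The site with most footprints, 13, lay in Tpst2, which codes for a tyrosine sulfotransferase. P2rx7, an ATP-gated ion channel of T cells and macrophages, and Ppp2r3d, a phosphatase regulatory subunit, each had a site with 11. In the sites found in both libraries, replicate 2 had 7238 footprints and replicate 3 had 2476. Of the 7238, 1483 overlapped a footprint of replicate 3 (20.5%), a share that the lower number of calls in replicate 3 limits. In windows of 150 bp at the centres of the intronic sites, footprints took up 17.9% of the bases in replicate 2 and 6.43% in replicate 3.

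First introns held more sites per base than later ones in replicate 2. Introns were numbered along the longest coding transcript of the host gene, which placed 2861 sites in first introns and 5974 in later introns, and 472 could not be placed. First introns held 32.4% of the placed sites and 25.1% of the intron bases that a site could occupy. That is 12.6 sites per Mb in first introns and 8.84 in later introns, a ratio of 1.43 (exact Poisson interval 1.36 to 1.49). In replicate 3 the rates were 2.78 and 2.61 per Mb (631 and 1762 sites), with a ratio of 1.07 (0.972 to 1.17), whose interval includes 1. By rank, the rate in replicate 2 was 9.29 per Mb in intron 2, 9.10 in intron 3, 9.66 in intron 4 and 8.57 in intron 5, so the step lay between the first intron and all others. In replicate 3 the same ranks gave 2.78, 2.29, 2.59, 2.56 and 2.63 per Mb from intron 1 to intron 5.

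Distance from a start site moved with this contrast. Sites in first introns lay a median of 7.81 kb from the nearest coding TSS, and those in later introns 25.1 kb. Between 1 and 2 kb, first introns held 30.7 and later introns 20.6 sites per Mb, a ratio of 1.49 (1.26 to 1.77). The ratio was 1.26 at 2 to 5 kb, 1.12 at 5 to 10 kb (0.997 to 1.26), 1.10 at 10 to 20 kb, 0.845 at 20 to 50 kb (0.763 to 0.935), 0.778 at 50 to 100 kb and 0.592 beyond 100 kb. In replicate 3 the ratios over the same distances were 1.23, 0.982, 0.756, 0.798, 0.476, 0.592 and 0.720. In replicate 2 the excess in first introns was thus largest at short range. Pooled over all sites at least 5 kb from a TSS the ratio was 1.18 (1.12 to 1.25), above that of every distance bin from 5 kb on. The pooled ratio does not match distance, because eligible bases of first introns lay nearer a TSS. They made up 35.1 Mb in first and 54.1 Mb in later introns at 5 to 10 kb, and 24.3 and 194 Mb beyond 100 kb. In replicate 3 the interval at 1 to 2 kb, 0.901 to 1.71, included 1. Beyond 20 kb first introns held fewer sites per Mb than later introns in both libraries. Beyond 100 kb, however, the replicate 3 interval of 0.385 to 1.25 included 1. Intron length gave another picture: within each of 7 bins of intron length the first introns held more, with ratios of 1.57 to 2.01 in replicate 2 and 1.31 to 1.79 in replicate 3. The replicate 3 intervals for introns under 2 kb (0.971 to 3.05) and of 50 to 100 kb (0.9996 to 1.70), however, included 1.

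**Figure D2:**
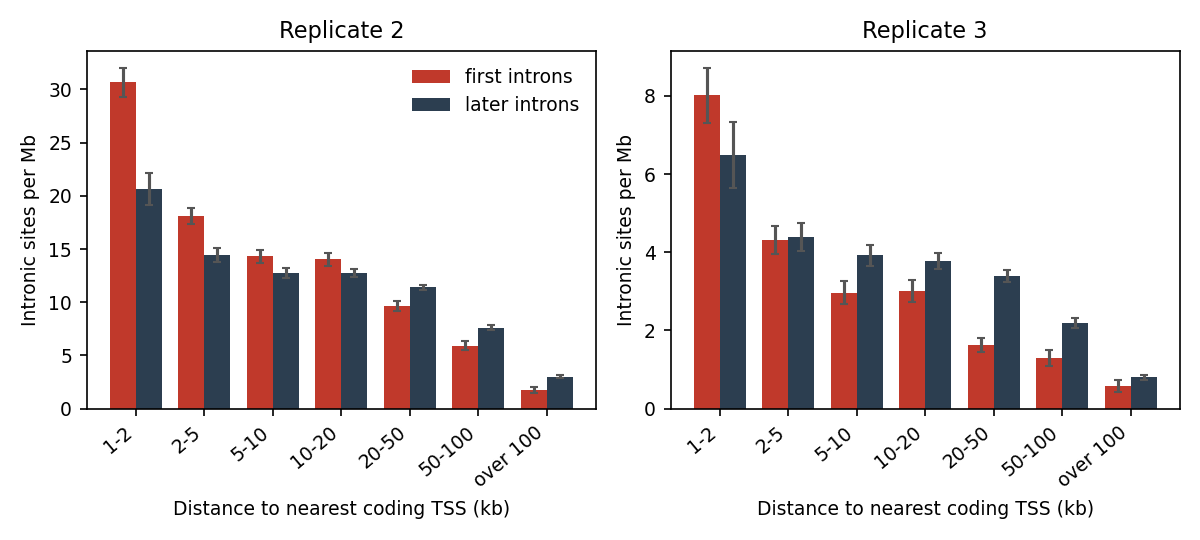
Intronic sites per Mb of eligible intron (vertical axis) in first and later introns by distance to the nearest coding TSS in kb (horizontal axis), for replicate 2 on the left and replicate 3 on the right, with error bars of 1 Poisson standard error. In replicate 2 first introns held 30.7 sites per Mb and later introns 20.6 at 1 to 2 kb, and the order was the other way round from 20 kb on.

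Sites in first and later introns also differed in what they held. A CTCF match, here an exact match to a consensus of 12 letters, was in 8.70% of first-intron and 17.7% of later-intron sites (difference -9.01 points, -10.4 to -7.56). Sites without a match can hold near matches, and binding was not measured. The KLF/SP motif GGGCGGGG, bound by the KLF and SP zinc finger factors common at CpG-rich promoters, was in 3.43% and 2.04% (1.38 points, 0.662 to 2.19). The RUNX motif TGTGGTT was in 9.51% and 8.60%, a difference of 0.903 points whose interval of -0.357 to 2.22 includes 0. The CTCF difference was present at each range of distance: 7.93% against 14.6% within 5 kb, 8.91% against 20.02% at 5 to 20 kb, and 9.64% against 17.0% beyond. Counted per Mb, sites with a CTCF match were rarer in first than in later introns (1.10 and 1.56, ratio 0.701, 0.608 to 0.805). Sites without a match were more frequent (11.5 and 7.27, ratio 1.58, 1.51 to 1.66). Replicate 3 gave the same directions, with ratios of 0.622 (0.501 to 0.767) for sites with a match and 1.25 (1.13 to 1.39) for the others.

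Fewer first-intron sites were found in the other library. The shares found in replicate 3 were 20.8% of first-intron and 27.8% of later-intron sites (-7.04 points, -8.89 to -5.15), although the median signal was 1.01 in first and 0.970 in later introns. Among sites without a CTCF match the shares were 18.8% and 23.7% (-4.96 points, -6.85 to -3.02). Among sites with one they were 41.8% and 46.8%, a difference of -5.02 points with an interval of -11.7 to 1.87. A footprint was held by 89.0% of first-intron and 92.8% of later-intron sites in replicate 2 (-3.88 points). Replicate 3 gave the other direction, 62.1% and 58.1% (4.01 points), with an interval of -0.466 to 8.38 that includes 0.

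Motifs were searched on both strands in the central 150 bp of each site and in 17487 windows of the same length centred 1000 bp to either side, leaving out windows that met a peak of replicate 2's permissive list. The GC content of sites was 52.1% and of flanks 46.4%, and its part in the ratios was not tested. Of 17 motifs, CTCF stood furthest from its flanks, with matches in 1379 sites (14.8%) and in 0.103% of flanks, a ratio of 144 (Katz interval 90.5 to 229). RUNX was in 817 sites (8.78%) and 3.93% of flanks, a ratio of 2.23 (2.03 to 2.47), and in replicate 3 its ratio was 1.33 (1.07 to 1.64). The TCF7/LEF1 motif CTTTGAT was in 294 sites (3.16%) and 2.08% of flanks, a ratio of 1.52 (1.30 to 1.77), while replicate 3 gave 0.893 (0.636 to 1.25), on the other side of 1. The AP-1 motif TGANTCA, bound by FOS and JUN dimers that are induced on activation, was in 5.14% and 4.09%, a ratio of 1.26 (1.12 to 1.41), and in replicate 3 the ratio was 1.09 with an interval of 0.875 to 1.37 that includes 1. The ETS motif CCGGAAGT and the CREB motif TGACGTCA each hold a CpG and were rare in both, in 0.623% and 0.634% of sites and 0.0972% and 0.0801% of flanks. The GATA motif AGATAA was less frequent in sites (4.75%) than in flanks (7.73%), with a ratio of 0.614. The ZEB letters CAGGTG can lie inside a CTCF match: of 1562 sites with them, 1218 had no CTCF match.

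**Figure D3:**
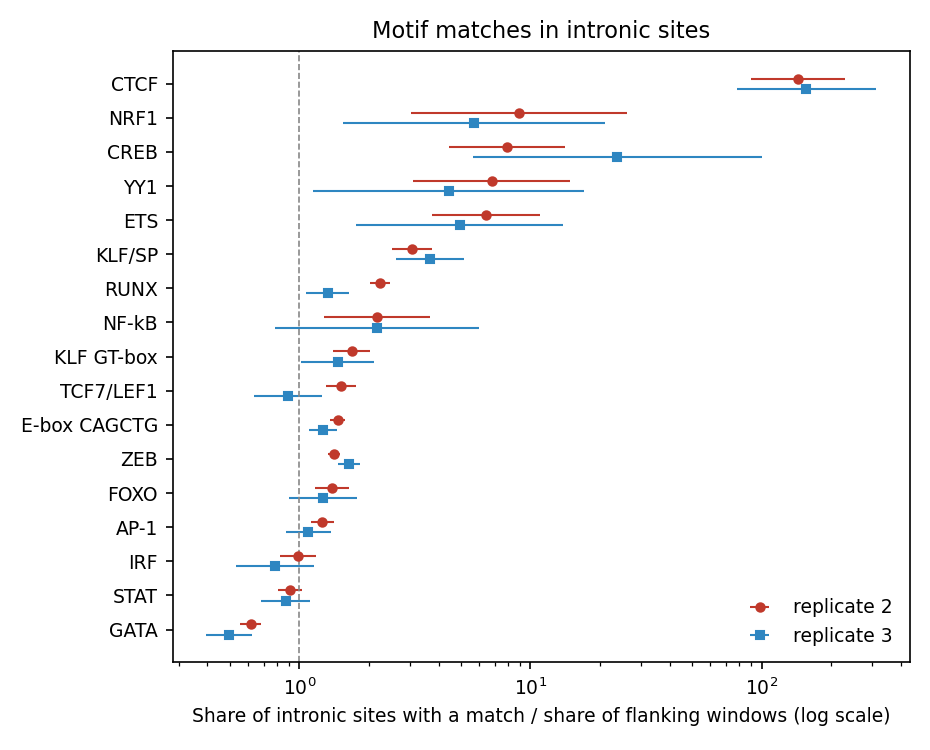
Ratio of the share of intronic sites with a match to the share of flanking windows with a match (horizontal axis, log scale, with 95% Katz intervals) for 17 motifs in replicate 2 and replicate 3. CTCF lies at 144 in replicate 2 and 156 in replicate 3, RUNX at 2.23 and 1.33, and TCF7/LEF1 at 1.52 and 0.893.

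Between classes, CTCF matches were in 14.8% of intronic sites and 1.28% of promoter peaks, with exon peaks at 17.1% and intergenic peaks at 17.0%. RUNX matches were in 8.78% of intronic sites, 1.91% of promoter peaks, 5.82% of exon peaks and 7.68% of intergenic peaks. KLF/SP went the other way, with 2.63% of intronic sites and 19.9% of promoter peaks. In replicate 2 CTCF matches lay inside a footprint in 89.8% of cases, RUNX matches in 22.4%, TCF7/LEF1 matches in 19.6% and AP-1 matches in 4.92%. Footprints took up 17.9% of all bases of the same windows. The TCF7/LEF1 interval (15.5 to 24.5) included that share, the RUNX interval (19.8 to 25.3) lay just above it, and AP-1 was below it. In replicate 3, with fewer footprints, the shares were 27.3% for CTCF, 7.86% for RUNX and 4.10% for AP-1, and 0 of 48 TCF7/LEF1 matches lay in one. There footprints took up 6.43% of the bases, a share inside the RUNX interval of 4.44 to 13.5. The widest footprint of a site had a median of 25 bp in the 1352 sites with a CTCF match and a footprint, and 13 bp in the 7172 others with a footprint. Of 1369 sites with a single CTCF match, 639 had the motif on the strand of the host gene (46.7%, 44.0 to 49.3).

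Sites of replicate 2 with a CTCF match (CTCF sites) and with a RUNX match (RUNX sites) differed in how often replicate 3 held them. Of the CTCF sites 46.0% were found in replicate 3, where all intronic sites of the same signal deciles would give 31.8%. Of the RUNX sites 16.5% were found, where the same deciles would give 25.6%, and of the TCF7/LEF1 sites 16.3%, where they would give 23.0%. The composition of the lists differed in the same way. Among the 17061 strongest peaks of replicate 2, as many as replicate 3 has, 2730 were intronic, against 2536 in replicate 3. Of these 19.8% held a CTCF match (18.4 to 21.4), against 26.0% in replicate 3 (24.4 to 27.8). RUNX matches were in 8.57% of them (7.58 to 9.68), against 5.32% in replicate 3 (4.52 to 6.27). At this equal number the first-to-later ratio was 1.48 in replicate 2 (1.36 to 1.61), against 1.07 in replicate 3 (0.972 to 1.17). Promoter peaks at T cell genes moved with this: replicate 2 had one at Cd3e, Cd3d and Cd3g, which code for invariant chains of the T cell receptor complex, with signals of 1.69, 1.01 and 1.80, and replicate 3's stricter list had none at these genes. At Cd8b1, the CD8 beta chain, the promoter peak reached 4.17 in replicate 2 and 3.16 in replicate 3, and Cd8a had none in either stricter list. At the promoters of 15 housekeeping genes both libraries had a peak at all 15. What part depth or the make-up of the cells had in these differences was not tested.

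The 9307 sites lay in 4582 of 19696 protein-coding genes with an intron that could hold a site. That is 23.3% of genes in replicate 2 and 9.85% in replicate 3 (1941 genes, 1886 of them shared). Of the hosts, 2698 held 1 site, 882 held 2, 744 held 3 to 5 and 258 held 6 or more, and these last held 23.2% of all sites. Hosts had long introns, with a median total of 45.6 kb, against 11.0 kb in genes without a site. Genes with a promoter peak held 15.3 intronic sites per Mb and genes without one 4.81, a ratio of 3.17 (3.02 to 3.32). Within bins of intron length that ratio ran from 1.62 to 6.10. In replicate 3 it was 2.20 over all lengths and ran from 1.08 to 5.28 within bins, and the lowest, for 10 to 20 kb of intron, had an interval of 0.839 to 1.39 that includes 1. Sites in the same gene were often near each other: of 4696 neighbouring pairs, 805 (17.1%) lay within 1 kb and 37.4% within 5 kb, with a median of 9.20 kb. The X chromosome held 5.42 sites per Mb and the autosomes 10.1 in replicate 2, and 0.944 and 2.78 in replicate 3. The part of X copy number in this was not tested.

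Most genes of the naive T cell list were hosts in replicate 2. Of 18 genes of the naive and memory-precursor list, 15 held a site in replicate 2, against the 23.3% of all genes, and 8 did in replicate 3, against 9.85%. The list had 53.3 sites per Mb of intron in replicate 2, where all genes had 9.89, and 11.1 in replicate 3. Of 18 genes of T cell receptor signalling, 13 were hosts in replicate 2 and 5 in replicate 3. Its densities were 42.9 and 8.10 sites per Mb. The CD8 lineage list had 3 hosts of 8 genes in replicate 2, namely Runx1, Runx3 and Tox, and the first pair in replicate 3. The lists of other cells ranged widely: 6 of 12 B cell genes, 3 of 9 myeloid genes with an eligible intron, 2 of 9 erythroid and megakaryocyte genes, 3 of 10 helper T cell genes, 4 of 16 genes of non-haematopoietic tissues and 1 of 15 housekeeping genes were hosts in replicate 2. The effector and exhaustion list had 4 hosts of 18. In replicate 3 the B cell list had 3 hosts of 12 and the non-haematopoietic list 4 of 16, the same share as the CD8 lineage list. By density the lists of other cells also stood apart from the 9.89 of all genes: in replicate 2 the erythroid and megakaryocyte list had 31.7 sites per Mb, the effector and exhaustion list 31.3, the helper T cell list 20.1 and the myeloid list 17.6, with the CD8 lineage list at 23.6. The B cell list had 8.29, the housekeeping list 5.23 and the non-haematopoietic list 4.16. Promoter peaks in replicate 2 were at 0 of 12 B cell genes, 4 of 12 myeloid genes and 5 of 16 non-haematopoietic genes, and at 16 of 18 naive and 16 of 18 T cell receptor genes. These lists were chosen with results of these data known, their genes differ in intron length, and their counts are given as a description. The naive list had a median intron total of 78.3 kb per gene, and the housekeeping list 14.0 kb.

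**Figure D4:**
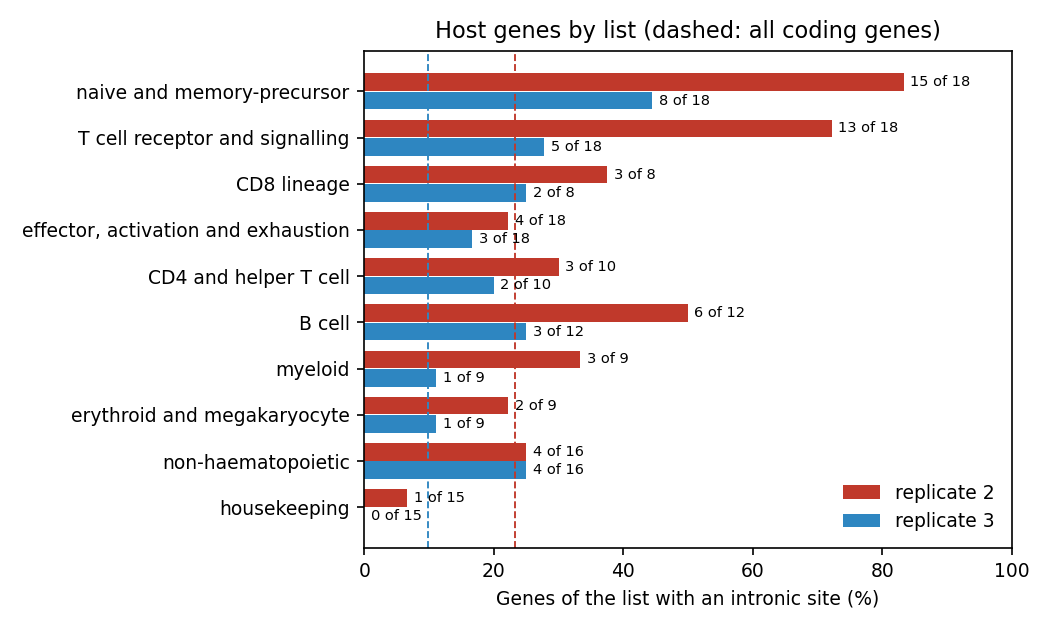
Share of the genes of each of 10 lists that held an intronic site (horizontal axis, percent; counts beside the bars) in replicate 2 and replicate 3, with dashed lines at the share over all protein-coding genes, 23.3% and 9.85%. The naive list, with 15 of 18 and 8 of 18, has the longest bar in each library, and the housekeeping list, with 1 of 15 and 0 of 15, the shortest.

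Among 16 transcription factor and signalling genes of these lists, 15 held 114 intronic sites, and Satb1, a chromatin organiser of T cells, held none. Of the 114, 24 were found in replicate 3's stricter list and 46 in its permissive list, where the shares over all intronic sites were 25.7% and 45.7%. A RUNX match was in 11 of them and a CTCF match in 3, where the shares over all intronic sites were 8.78% and 14.8%. Bach2, a repressor that restrains effector differentiation, held 24 sites, 12 in its first intron and 12 in later ones, with signals from 0.485 to 8.07 and a median of 1.77. Its strongest site, shown above, reached 8.07 in replicate 2 and 6.05 in replicate 3, with 5 footprints and the E-box letters CAGCTG and the ZEB letters outside them. The site 9.66 kb into the gene had 6.92 and 7.27. Of the sites in both libraries, 5 of 6 lay between 9.66 and 19.5 kb from the gene's 5′ end and the other at 105.1 kb with 4.92 in replicate 2 and 3.79 in replicate 3. The site at 124.9 kb, with 4.36 in replicate 2, had no peak in either list of replicate 3.

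Lef1, an HMG-box factor of naive T cells, held 13 sites with signals of 0.985 to 5.15, all in introns 3, 7 and 9. The pair at 47.1 and 98.2 kb had 5.15 and 5.13 in replicate 2, and both had 3.93 in replicate 3. The site at 104.6 kb had 2.07 in replicate 2 and 2.80 in replicate 3, and no other site of Lef1 was in the stricter list of replicate 3. The printed Lef1 site carries the RUNX letters outside its footprints. Tcf7, the related HMG-box factor, held 3 sites in its second intron with signals of 2.42, 2.15 and 3.21, all above the median intronic site. None was in replicate 3's stricter list, and the strongest had 3.03 in its permissive list.

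Ets1, an ETS factor needed for T cell survival, held 9 sites. Its strongest, in the first intron at 70.1 kb, had 3.27 in replicate 2 and 3.25 in replicate 3, and the 5 in intron 6, between 104.8 and 111.5 kb, had 1.26 to 2.28 in replicate 2 and no peak in replicate 3's stricter list. Bcl11b, required for T cell commitment, held 6 sites. The one at 4.67 kb had 4.39 and 4.88 in replicates 2 and 3, and the next at 10.4 kb had 3.76 in replicate 2 alone (2.30 in the permissive list of replicate 3). Ikzf1, the Ikaros factor of lymphocytes, held 5 sites, of which that at 41.4 kb had 4.05 and 2.44 in replicates 2 and 3. Foxp1, a forkhead factor that keeps naive T cells quiescent, held 7 sites, not counting those assigned to Gm20696, a shorter predicted gene that overlaps it. Its pair at 426.5 and 427.0 kb were its sites in both libraries, with 2.45 and 2.03 in replicate 2 and 2.12 and 2.67 in replicate 3.

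Of the RUNX factors, which in CD8 T cells silence Cd4 and promote the cytotoxic fate, Runx1 held 6 sites and Runx3 held 5. The strongest Runx1 site had 3.45 in replicate 2 and 4.79 in replicate 3. The strongest Runx3 site, printed above, had 3.08 in replicate 2 and 4.34 in replicate 3 and lay 30.0 kb into the first intron of the longest transcript, 1.88 kb from another coding TSS. Tox, an HMG-box factor of CD8 development and exhaustion, held 4 sites of 0.463 to 1.12 in replicate 2 and none in replicate 3.

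Of the signalling genes, Cd247, the zeta chain of the T cell receptor complex, held 10 sites, all in its first intron. The 3 found in both libraries lay at 56.4, 56.9 and 65.2 kb and had 1.81, 2.68 and 2.39 in replicate 2 and 2.48, 3.88 and 3.30 in replicate 3. The printed one has 8 footprints, 1 of them over the KLF/SP letters, and RUNX and AP-1 letters outside them. Prkcq, protein kinase C theta, held 10 sites, of which the 3 in both libraries lay in introns 10, 12 and 15. They had 2.14, 4.39 and 4.05 in replicate 2 and 1.49, 3.70 and 3.88 in replicate 3, and the 6 sites of its first intron had 1.21 to 2.54 in replicate 2 and no peak in replicate 3's stricter list. Fyn, a Src-family kinase, held 8 sites of 0.492 to 1.59, and Rasgrp1, an activator of Ras, held 2 of 1.16 and 0.985, all of them in replicate 2 alone by the stricter lists. Themis, a protein of thymocyte selection, held 2 sites, and the printed CTCF site had 1.01 in replicate 2 and 0.813 in the permissive list of replicate 3. Taking the 159 sites in hosts of the naive, T cell receptor and CD8 lists, 18.9% were found in replicate 3, where all intronic sites of the same signal deciles would give 35.8%.

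**Figure D5:**
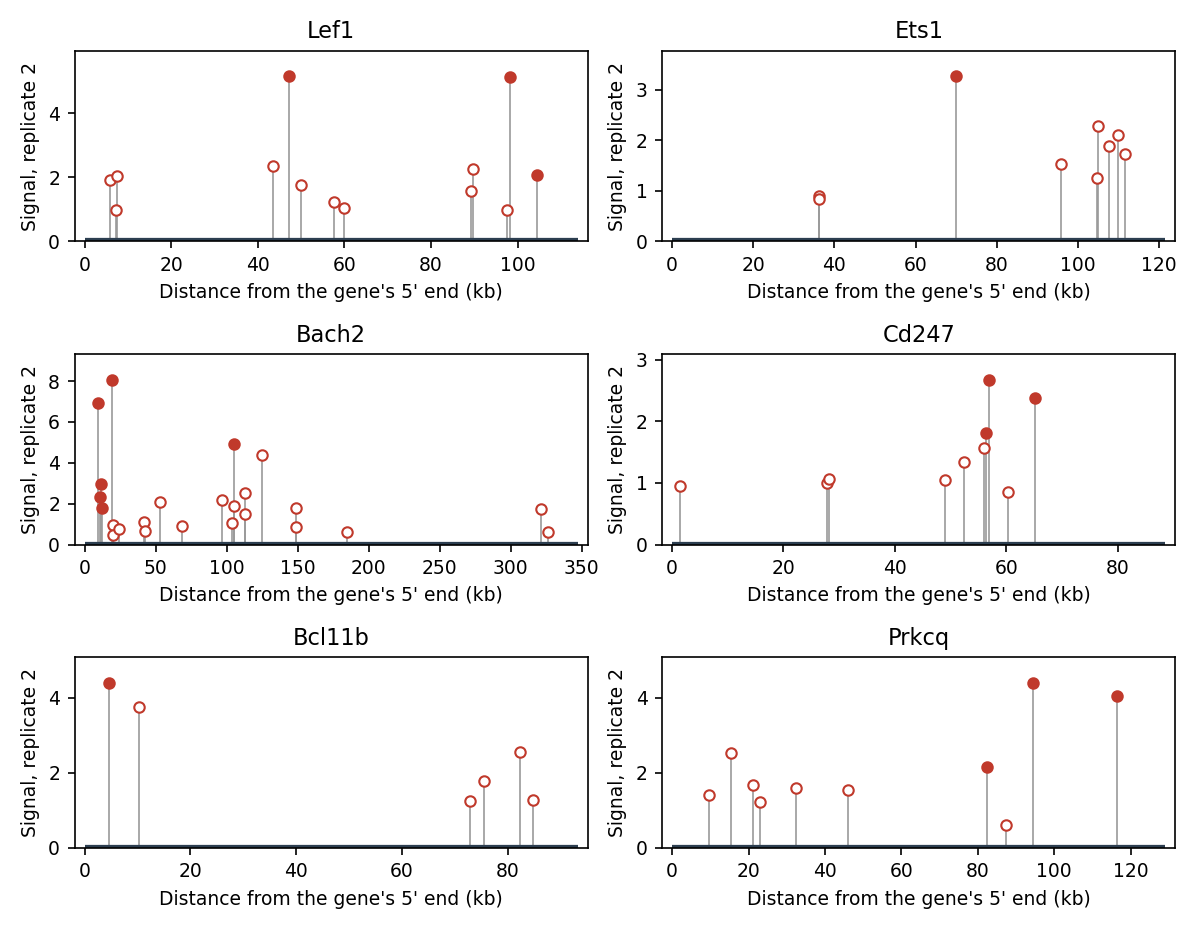
Replicate 2 signal of each intronic site (vertical axis) by distance from the 5′ end of the host gene in kb (horizontal axis) in Lef1, Ets1, Bach2, Cd247, Bcl11b and Prkcq. Filled points are sites that overlap a peak of replicate 3's stricter list (3 of 13 in Lef1, 1 of 9 in Ets1, 6 of 24 in Bach2, 3 of 10 in Cd247, 1 of 6 in Bcl11b and 3 of 10 in Prkcq), and open points are not.

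Over all genes, the host with most sites was Gm20388, a predicted gene whose first intron of 4384 kb spans other genes on chromosome 8. It held 60 sites, all in that intron, of which 28 were found in replicate 3. Sites inside a smaller nested gene were counted to the smaller gene. Bach2 followed with 24, then Mid1 (a microtubule-associated ubiquitin ligase on the X chromosome) and Wwox (an oxidoreductase at a fragile site) with 23 each, and Bcor (a corepressor of BCL6, on the X chromosome) with 22. All 22 sites of Bcor were in its first intron, with signals of 0.373 to 1.64, and 0 of them were in replicate 3's stricter list. Per length of intron, the densest host among those with 5 or more sites was Ccr7, the chemokine receptor that guides naive T cells to lymph nodes, with 5 sites in 7.99 kb, or 62.6 per 100 kb. Its sites had 1.16 to 3.30 in replicate 2 and none was in either list of replicate 3. Vps37b, a subunit of an endosomal sorting complex, followed with 11 sites (45.3 per 100 kb), also with none in replicate 3. Gm44511, a predicted gene, held 8 (33.2 per 100 kb), of which 4 were found in replicate 3. Bcl6, a transcriptional repressor that promotes the follicular helper fate, held 6 (31.3 per 100 kb), with 1.04 to 3.12 in replicate 2 and none in replicate 3.

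The highest signals belonged to few sites, and most of those had sequence that recurs in the genome. The top site, in Zc3h7a, had 80.3 in replicate 2 and 60.6 in replicate 3, and Kpna1, a nuclear import receptor, followed with 57.4 and 50.6. Of the 10 strongest, the sites in Zc3h7a, Kpna1 and Chd2 lay 0.111, 0.6 and 0.112 kb from a TSS of a non-coding gene. The Kpna1 site could not be placed in an intron of a coding transcript. Il31ra, a cytokine receptor gene, had 56.3 and 41.6, Jarid2, a Polycomb cofactor, 34.9 and 29.4, and Gphn, which codes for gephyrin, 31.3 and 23.7. A mappability measure was not at hand, so the central 32 bases of each site were counted in the primary mm10 assembly, exact matches on both strands. Copies missing from that assembly were not counted. Of the 10 strongest sites 8 had more than 1 copy: those in Zc3h7a and Gphn 4, in Il31ra and Jarid2 2, in Filip1l 11, and the 3 in Mid1 2, 4 and 8, while those in Kpna1 and Chd2 had 1. Among all sites 185 (1.99%) had more than 1 copy, 9095 had 1, and 27 were too narrow to search. Sites with several copies held a CTCF match in 2.70% of cases and single-copy sites in 15.1%, and 21.6% and 25.9% were found in replicate 3. In Mid1 14 of 23 sites had several copies, in Gm20388 8 of 60 and in Sfi1 6 of 16. Bcor, Gm20696 and Gm44511 had 1 such site each, while Bach2, Lef1, Ccr7, Vps37b, Bcl6, Wwox, Ttc28 and Fgfr2 had none. Whether reads of other copies are placed at these sites was not tested.

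Ccnd3 codes for cyclin D3, the D-type cyclin of lymphocytes, and its first intron held one of the stronger single-copy sites. The printed site had 10.6 in replicate 2 and 9.31 in replicate 3, with 4 footprints in replicate 2 and the AP-1 letters outside them. Repeat-masked sequence made up at least 50% of the bases in 648 intronic sites (6.96%) and in 0.758% of promoter peaks. A TSS of a non-coding gene lay within 1 kb of 356 intronic sites (3.83%), which the rule, based on protein-coding genes, keeps as intronic.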

How the data were processed

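The 2 libraries, biological replicates 2 and 3, were assigned from the labels and form 1 group. For each, the authors deposited a stricter and a permissive peak list with a signal value per peak, a list of footprint positions, and a table with a false discovery rate, a p-value-like unit, per position, all in mm10 per the labels. The sources used here do not give the aligner, the peak caller or the signal scaling. Read depth was not used: signals were whole multiples of 1 step in every intronic site below 2, within a tolerance of 0.05 of a step, and the step was 6.05 times larger in replicate 3.

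Peaks were classed against GENCODE M21 basic with Python 3.11.15, numpy 2.4.6 and scipy 1.17.1, an overlap of 1 bp counting as shared, and figures were drawn with matplotlib 3.10.9. Where gene bodies nest, the smallest body was the host. Shares have Wilson, differences Newcombe, rate ratios exact Poisson and motif ratios Katz intervals, all at 95%. Sequence came from the GRCm38 reference. Annotation, motif, interval and copy steps were tested on simulated data.

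The members, the 10 gene lists and the 16 genes followed site by site were chosen with earlier results of these data known. Named hosts and sites were the 16 genes with their sites and other listed hosts, the 10 hosts with most sites and the 10 densest among those with 5 or more, the 10 strongest sites, the 5 strongest sites of first and of later introns found in both libraries and under 50% masked, and the 5 sites with most footprints. No test across samples was possible with 1 group. Alternatives were each tried on the results they bear on: the permissive list, promoter windows of 500 and 2500 bp and the exons and TSSs of all genes for the number of sites, other overlap rules for recovery and footprints, a width limit for footprints, other intron numbering, 1 host gene only and a distance of at least 5 kb for first against later introns, the strongest 1% of peaks left out for signal, whole peaks and flanks at 2 kb for motifs, an equal number of strongest peaks, and replicate 3 alone. Limiting sites to those whose central 32 bases occur once, and the equal number for first against later introns and for signal, were added after seeing the data.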

Additional observations from a re-analysis of the deposited data

How the results depend on the processing

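Of 109 alternative values, 78 held, 35 for the main results and 43 for the single motifs or lists. A ratio held when its side of 1 stayed and its interval still included or excluded 1. A share held when it stayed inside the reported interval, and a count when it stayed within 1.5 times. Among the main results 14 values moved, 1 reversed and 1 weakened, and among the others 9 moved, 3 reversed and 3 weakened. Size could still move: the CTCF ratio was 239 with flanks at 2 kb and the RUNX ratio 1.33 without replicate 2, and with flanks at 2 kb the CREB ratio was 4.16 and the NRF1 ratio 36.2. The number of intronic sites was 14572 in the permissive list and 2536 without replicate 2. Their share of peaks was 27.2% in the permissive list, 27.5% with a promoter window of 500 bp, 21.7% with one of 2500 bp, 23.1% with the exons and TSSs of all genes and 14.9% without replicate 2. The share found in replicate 3 was 45.7% against its permissive list, 21.5% with an overlap of 50% of both peaks and 60.8% for the equal number of strongest peaks. The share with a footprint was 90.4% counting whole footprints inside the peak, 96.5% in sites of 150 to 250 bp and 59.4% without replicate 2. The ratio of first to later introns was 1.07 without replicate 2. The TCF7/LEF1 ratio turned to 0.893 without replicate 2. IRF, 0.988 as reported, turned to 1.26 over whole peaks, whose widths differ from those of the flanking windows, and 1.05 with flanks at 2 kb, and STAT, 0.910 as reported, to 1.21 over whole peaks. Host genes numbered 1941 without replicate 2. The causes of these changes were not tested. No paired analysis was possible because both libraries belong to 1 group. With 2 libraries, no spread within the group was estimated.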

Other observations

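Hosts also included genes of B cells and of other T cell states. Pax5, the factor that fixes B cell identity, held 3 intronic sites in replicate 2, of which 2 were found in replicate 3, and Ebf1, another B cell factor, held 2, both found in replicate 3. No promoter of the 12 B cell genes had a peak in either stricter list. Rora, a nuclear receptor of helper and innate lymphocytes, held 13 sites, 3 of them found in replicate 3, and Il2ra, the interleukin-2 receptor alpha chain that is induced on activation, held 3, of which 2 were found. Prdm1, a transcriptional repressor that promotes effector differentiation, held 3 sites, 2 of them found. Cd4 held 2 sites, neither found in replicate 3.

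A share of intronic sites overlapped another member of the rule's set, 95 sites or 1.02%. In addition, 314 sites lay in more than 1 protein-coding gene. One was the strongest of the 19 sites counted to Gm20696, a predicted gene, which also lies in Foxp1.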
